A study of Mus musculus with 15 samples.

Results

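The genes described here fold, modify, export and clear the proteins that a T helper 2 (Th2) cell makes on the membrane of its endoplasmic reticulum (ER). They were a list of 46 named genes covering the unfolded protein response, chaperones, disulfide isomerases, ER-associated degradation, the translocon and export vesicles. Of these, 45 had a row among the 56748 genes of the tables and all 45 were among the 15619 genes with enough counts to test. The name Eif2ak3x had no row, and the gene of the ER kinase PERK, Eif2ak3, is described below with the wider pathway. Ddit3 had a pair of rows, of which 1 held 0 counts in every library, so the other was used.

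The study measured RNA in 15 libraries of Th2 lymphocytes grown from naive splenic CD4+ cells of female mice. Control cells carried floxed alleles of Asb2, the substrate-recognition subunit of a ubiquitin ligase (genotype Asb2fl/fl, no Cre), and those labelled cKO (conditional knockout) had these alleles plus a Cre driven by the VE-cadherin promoter (VEC-Cre;Asb2fl/fl). That promoter is active in endothelium and in blood precursors, so the deletion is not limited to T cells. All cells had 3 days of Th2 priming on anti-CD3ε and 3 days in medium with interleukins, without antibodies other than those of the stimulation. The stimulated cells received 3 µg/ml coated anti-CD3ε and 2 µg/ml soluble anti-CD28 from day 5 for 24 h. The groups were non-stimulated control (n = 3), stimulated control (n = 5), non-stimulated cKO (n = 3) and stimulated cKO (n = 4). The age of the mice was not given in the sources used here. Nothing ties a library to an animal of its own either, and p-values then reflect only the library spread, which may be technical.

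Secreted and membrane proteins enter the ER through the Sec61 channel, lose their signal peptide, fold with the help of chaperones such as BiP (the product of Hspa5) and calreticulin, gain disulfide bonds from isomerases that Ero1 oxidases recharge, and leave in COPII vesicles. Proteins that fail to fold are drawn back out and degraded. When unfolded proteins build up, the sensors IRE1, PERK and ATF6 start the unfolded protein response, in which ATF6 and the spliced form of XBP1 bind the ER stress response element (ERSE) in front of chaperone genes. Th2 cells secrete interleukins 4, 5 and 13 when their antigen receptor is engaged.

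The ERSE is a CCAAT box and a CCACG box separated by 9 bases, and it is shown here because it marks many of the chaperone genes whose levels follow. RefSeq promoters (GRCm38.p6, 250 bases before to 50 after the start) matched 35 of the 46 names, and the motif was searched on both strands. It was found in 9 of the 35 (25.7%), against 37 of 27025 genes with a promoter in the table (0.137%). The 10 motifs lay between 26 and 212 bases before the start, and Hsp90b1 held a pair of them. Each is printed with 10 bases on either side, read on the strand of the motif, with both boxes in capitals.
Hspa5, chr2:34772015-34772053 (+): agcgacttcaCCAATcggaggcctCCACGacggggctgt
Calr, chr8:84847065-84847103 (+): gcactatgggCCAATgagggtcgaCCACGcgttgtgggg
Hsp90b1, chr10:86705628-86705666 (-): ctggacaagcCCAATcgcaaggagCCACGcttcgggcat
Hsp90b1, chr10:86705523-86705561 (+): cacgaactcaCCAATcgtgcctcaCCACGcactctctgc
Canx, chr11:50325790-50325828 (-): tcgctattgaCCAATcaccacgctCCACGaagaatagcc
Pdia6, chr12:17266481-17266519 (+): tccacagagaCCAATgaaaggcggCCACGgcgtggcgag
Ero1b, chr13:12565672-12565710 (-): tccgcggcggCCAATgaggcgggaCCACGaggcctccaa
Dnajc3, chr14:118937817-118937855 (+): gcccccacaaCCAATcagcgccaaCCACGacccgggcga
Creld2, chr15:88819510-88819548 (-): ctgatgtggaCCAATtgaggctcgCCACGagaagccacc
Syvn1, chr19:6046522-6046560 (+): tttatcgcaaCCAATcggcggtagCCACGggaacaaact

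The related element ERSE-II joins ATTGG and CCACG across 1 base. It was found in Herpud1 and Dnajb11, 2 of the 35 promoters (5.71%), against 12 of all genes (0.0444%). In Herpud1, whose product helps to assemble the degradation complex, it lay 52 to 42 bases before the start. In Dnajb11 it lay 7 to 17 bases after the start, inside the transcript. A shorter XBP1 site, TGACGTGG, was found in Sec24d alone among the 35 and in 193 of all genes (0.714%). A match is a description of these letters and was not tied to binding of any factor.
Herpud1, chr8:94386367-94386397 (+): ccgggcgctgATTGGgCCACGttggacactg

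The 250 bases before the start are printed for 3 of these genes because they share the element and differed in their response to stimulation. Hspa5 and Pdia6 were among the genes with the largest rise, and Canx, the gene of the membrane chaperone calnexin, was not called in either genotype. Capitals mark the ERSE boxes on the printed strand.
Hspa5, chr2:34771840-34772089 (+): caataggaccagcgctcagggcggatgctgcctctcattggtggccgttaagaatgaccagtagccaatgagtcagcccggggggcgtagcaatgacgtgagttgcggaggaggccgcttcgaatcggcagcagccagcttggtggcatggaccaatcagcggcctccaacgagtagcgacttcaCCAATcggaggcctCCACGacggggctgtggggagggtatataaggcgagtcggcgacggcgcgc
Pdia6, chr12:17266339-17266588 (+): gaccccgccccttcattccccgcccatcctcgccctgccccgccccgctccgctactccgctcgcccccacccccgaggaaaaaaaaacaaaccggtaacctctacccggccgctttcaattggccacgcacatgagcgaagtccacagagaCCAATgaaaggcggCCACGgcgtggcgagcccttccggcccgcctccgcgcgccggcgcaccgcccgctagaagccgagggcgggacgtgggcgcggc
Canx, chr11:50325674-50325923 (-): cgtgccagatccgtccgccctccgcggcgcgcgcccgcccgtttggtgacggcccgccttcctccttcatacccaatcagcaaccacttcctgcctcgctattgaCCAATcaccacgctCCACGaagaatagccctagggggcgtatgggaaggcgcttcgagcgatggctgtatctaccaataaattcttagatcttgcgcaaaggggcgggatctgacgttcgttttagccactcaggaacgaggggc

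**Figure D1:**
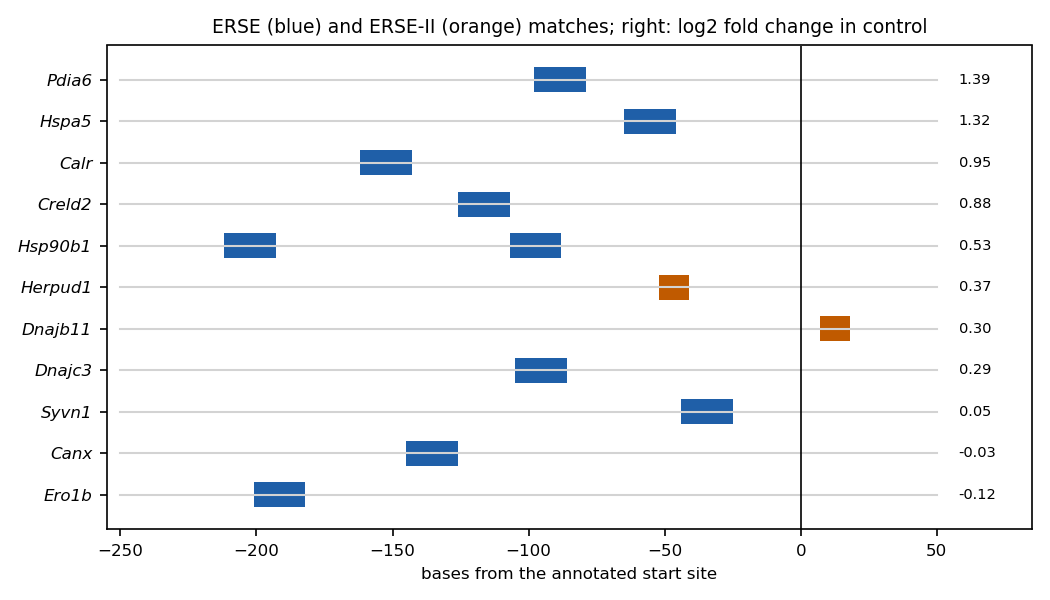
Positions of the ERSE and ERSE-II matches in the 11 promoters that hold one, in bases from the RefSeq start site (x axis, 250 before to 50 after), 1 gene a line, with the log2 fold change with stimulation in control cells at the right. All matches but that of Dnajb11 lie before the start, and those of Hspa5, Syvn1 and Herpud1 are within 65 bases of it.

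The depth of a library was 17.08 to 24.19 M in estimated counts. Levels below are CPM, estimated counts relative to the scaled size of the library, unless TPM, which also divides by gene length, is named. Asb2 itself stood at 36.7 ± 12.15 CPM in non-stimulated and 33.48 ± 2.72 in stimulated control cells (SD, n = 3 and 5), and at 19.16 ± 5.62 and 9.49 ± 0.11 in cKO cells (n = 3 and 4), so some Asb2 RNA remained. The 6 T cell markers summed to 2014 to 2390 CPM in non-stimulated and 1398 to 1817 CPM in stimulated libraries. The 6 Th2 markers summed to 858.6 to 1201 CPM in non-stimulated and 3215 to 4507 CPM in stimulated libraries. Over all libraries the cytokine genes Il13, Il5 and Il4 ran from 11.2 to 2079, 1.54 to 1512 and 5.49 to 181.1 CPM. Gata3, Il1rl1 and Ccr4 ran from 544.8 to 826.5, 63.69 to 339.3 and 149.1 to 249.9 CPM. The 8 myeloid markers summed to 13.22 to 23.14 CPM without and 2.93 to 6.37 CPM with stimulation, with Adgre1 up to 17.2 CPM, Cd68 up to 4.3 and Itgam up to 3.93, while Lyz2, C1qa and S100a8 were at 0 in every library. The 5 basophil and mast cell markers summed to 3.43 to 14.9 CPM without and 0.17 to 1.31 CPM with stimulation, and the 4 CD8 T and NK cell markers to 12.2 to 45.9 and 6.08 to 30.8 CPM. All 9 B cell and plasma cell markers were detected, mostly as Ighm, and summed to 60.33 to 90.31 CPM in non-stimulated and 32.65 to 67.07 CPM in stimulated libraries. The plasma cell marker Sdc1 ran from 0.91 to 36.22 CPM, while Jchain did not exceed 0.35 CPM. The 5 endothelial markers summed to 165.3 to 197.4 CPM without and 44.38 to 77.18 CPM with stimulation, nearly all of it Pecam1, and none of the others exceeded 0.33 CPM. The part of these cell types in the results was not tested.

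The question of how renewed receptor engagement moves the ER genes was answered within each genotype. In control cells 19 of the 45 genes rose, 2 fell and 24 were not called (edgeR quasi-likelihood test, adjusted p under 0.05). Among all genes tested 25.4% were called higher and 25.2% lower. The median log2 fold change of the 45 was 0.22, against 0.00 over all genes. In cKO cells 26 rose and 2 fell, where 26.7% of all genes were called higher and 27.1% lower. The median of the 45 was 0.38 against -0.01. The shares of all genes called higher and lower apply to every role below. The genes that moved most were chaperones, 1 isomerase, 1 oxidase and export proteins: Pdia6, Hspa5, Ero1a, Lman1 and Hyou1 rose by 2.22- to 2.63-fold in control and 2.52- to 3.12-fold in cKO cells. Because these are bulk libraries, fewer cells of a type and less RNA per cell cannot be told apart.

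The summed counts of the 45 genes took 0.893 ± 0.109% of all counts in non-stimulated control (SD, n = 3) and 1.287 ± 0.084% in stimulated control cells (n = 5). The corresponding shares in cKO cells were 0.868 ± 0.045% (n = 3) and 1.316 ± 0.052% (n = 4). The lowest stimulated library, at 1.192%, was above the highest non-stimulated library, at 1.009%.

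**Figure D2:**
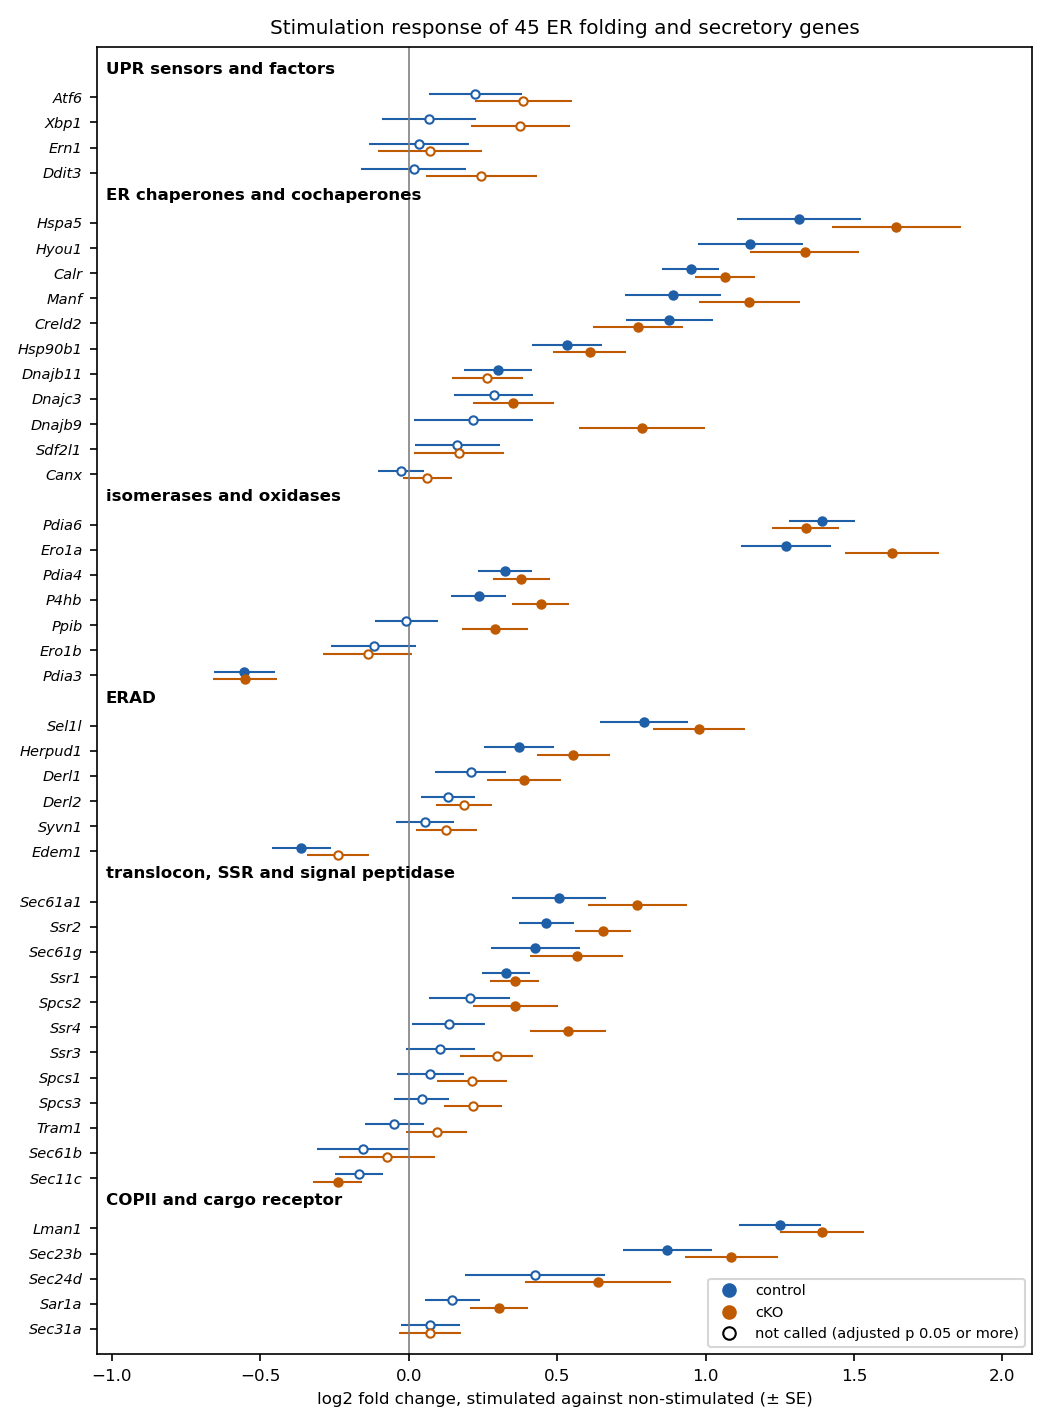
Log2 fold change with stimulation (x axis) of each of the 45 genes, grouped by role, in control and in cKO cells. Bars are 1 SE, derived from the edgeR test statistic, and filled points are genes called at an adjusted p under 0.05. Pdia6, Hspa5, Ero1a and Lman1 lie farthest to the right in both genotypes, and Pdia3 lies farthest to the left at -0.55 in both.

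The sensors and transcription factors of the unfolded protein response among the 45 (Xbp1, Atf6, Ern1 and Ddit3) were not called in either genotype: 0 of 4 rose and 0 of 4 fell. Atf6, a sensor that is cut at the Golgi to release a transcription factor, had 160.6, 130.5 and 202.7 CPM in the 3 non-stimulated control libraries, 191.8, 192.9, 159.4, 196.0 and 222.1 in the 5 stimulated ones, 122.3, 174.6 and 147.8 in non-stimulated cKO and 148.9, 189.8, 219.1 and 217.3 in stimulated cKO libraries. These ranges overlapped in both genotypes. The log2 fold change was 0.22 ± 0.16 (SE, adjusted p = 0.246) in control and 0.39 ± 0.16 (adjusted p = 0.0547) in cKO cells, by edgeR with Benjamini-Hochberg adjustment.

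Xbp1, whose RNA is spliced by IRE1 to give the active factor, had 285.5, 216.3 and 396.6 CPM in non-stimulated control, 286.9, 353.7, 276.3, 323.6 and 330.1 in stimulated control, 224.5, 324.0 and 241.3 in non-stimulated cKO and 352.8, 352.8, 359.6 and 300.8 in stimulated cKO libraries. The 3 non-stimulated control libraries spanned a wider range than the 5 stimulated ones. Its log2 fold change was 0.07 ± 0.16 in control (edgeR adjusted p = 0.746) and 0.38 ± 0.17 in cKO cells (adjusted p = 0.0671). Gene-level values do not separate spliced from unspliced Xbp1. Ern1, the gene of IRE1 itself, had log2 changes of 0.03 and 0.07, and Ddit3, the gene of the stress factor CHOP, 0.02 and 0.24, in control and cKO cells. Without the second non-stimulated cKO library, Xbp1, Atf6 and Ddit3 were each called higher in cKO cells (edgeR adjusted p = 0.0152, 0.0241 and 0.04), and Atf6 also without the first and Xbp1 without the fourth stimulated cKO library (0.0137 and 0.0434).

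Chaperones and their cochaperones moved in 1 direction where they were called: 7 of 11 rose in control and 8 of 11 in cKO cells, and none was called lower, with medians of 0.53 and 0.77. Calr, the gene of the lectin chaperone calreticulin, had 315.0, 351.7 and 381.2 CPM in non-stimulated and 620.4, 648.8, 722.1, 704.0 and 677.5 in stimulated control libraries, and 325.7, 336.1 and 372.3 against 696.6, 680.5, 826.2 and 683.1 in cKO libraries. Every stimulated library was above every non-stimulated one. The log2 fold change was 0.95 ± 0.10 in control (edgeR adjusted p = 2.96e-07) and 1.07 ± 0.10 in cKO cells (adjusted p = 1.29e-07), which is 1.93- and 2.09-fold.

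Hyou1, an ER relative of Hsp70 that exchanges nucleotide on BiP, had 136.0, 107.0 and 210.4 CPM in non-stimulated and 333.9, 333.8, 302.2, 329.7 and 379.4 in stimulated control libraries, and 117.9, 171.8 and 133.8 against 339.6, 333.9, 411.4 and 339.0 in cKO libraries. The groups did not overlap within either genotype. Its log2 fold change was 1.15 ± 0.18 (edgeR adjusted p = 4.71e-05) in control and 1.33 ± 0.18 (adjusted p = 1.53e-05) in cKO cells.

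Hspa5, the gene of BiP, the central chaperone of the lumen, had 425.8, 316.2 and 628.3 CPM in non-stimulated and 1094, 1213, 1019, 1036 and 1325 in stimulated control libraries, and 342.6, 459.1 and 410.6 against 1040, 1152, 1735 and 1121 in cKO libraries. All stimulated libraries were above all non-stimulated ones, and 1 stimulated cKO library stood well above its group. The rise was 2.49-fold in control (log2 1.32 ± 0.21, edgeR adjusted p = 7.81e-05) and 3.12-fold in cKO cells (1.64 ± 0.22, adjusted p = 1.34e-05).

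The other chaperones called higher in both genotypes were Manf, a secreted ER survival factor (log2 0.89 and 1.15 in control and cKO), Creld2 (0.88 and 0.77) and Hsp90b1, the ER form of Hsp90 (0.53 and 0.61). Dnajb11, a BiP cochaperone, was called in control cells at 0.30 ± 0.11 (edgeR adjusted p = 0.0361) and not in cKO cells at 0.26 ± 0.12 (adjusted p = 0.0685). Dnajb9 and Dnajc3, also J-domain cochaperones of BiP, were called in cKO cells at 0.79 and 0.35 and not in control cells at 0.22 and 0.29. Canx stayed within 0.06 of 0 in both genotypes (-0.03 ± 0.08 and 0.06 ± 0.08), and Sdf2l1 had 0.16 and 0.17, neither called. Canx and Calr encode lectin chaperones of the same cycle, and only the RNA of Calr was called. The call of Dnajb11 in control cells was lost without any 1 of the 3 non-stimulated control libraries and without the third or the fifth stimulated one (edgeR adjusted p = 0.0529 to 0.14), and it was called in cKO cells without the second or the fourth stimulated cKO library (0.0357 and 0.0286). The call of Dnajc3 in cKO cells was lost without the first or the second non-stimulated or the third stimulated cKO library (0.101 to 0.149), with a log2 change of 0.19 without the last of these, and it was called in control cells without the first stimulated control library (0.0448).

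**Figure D3:**
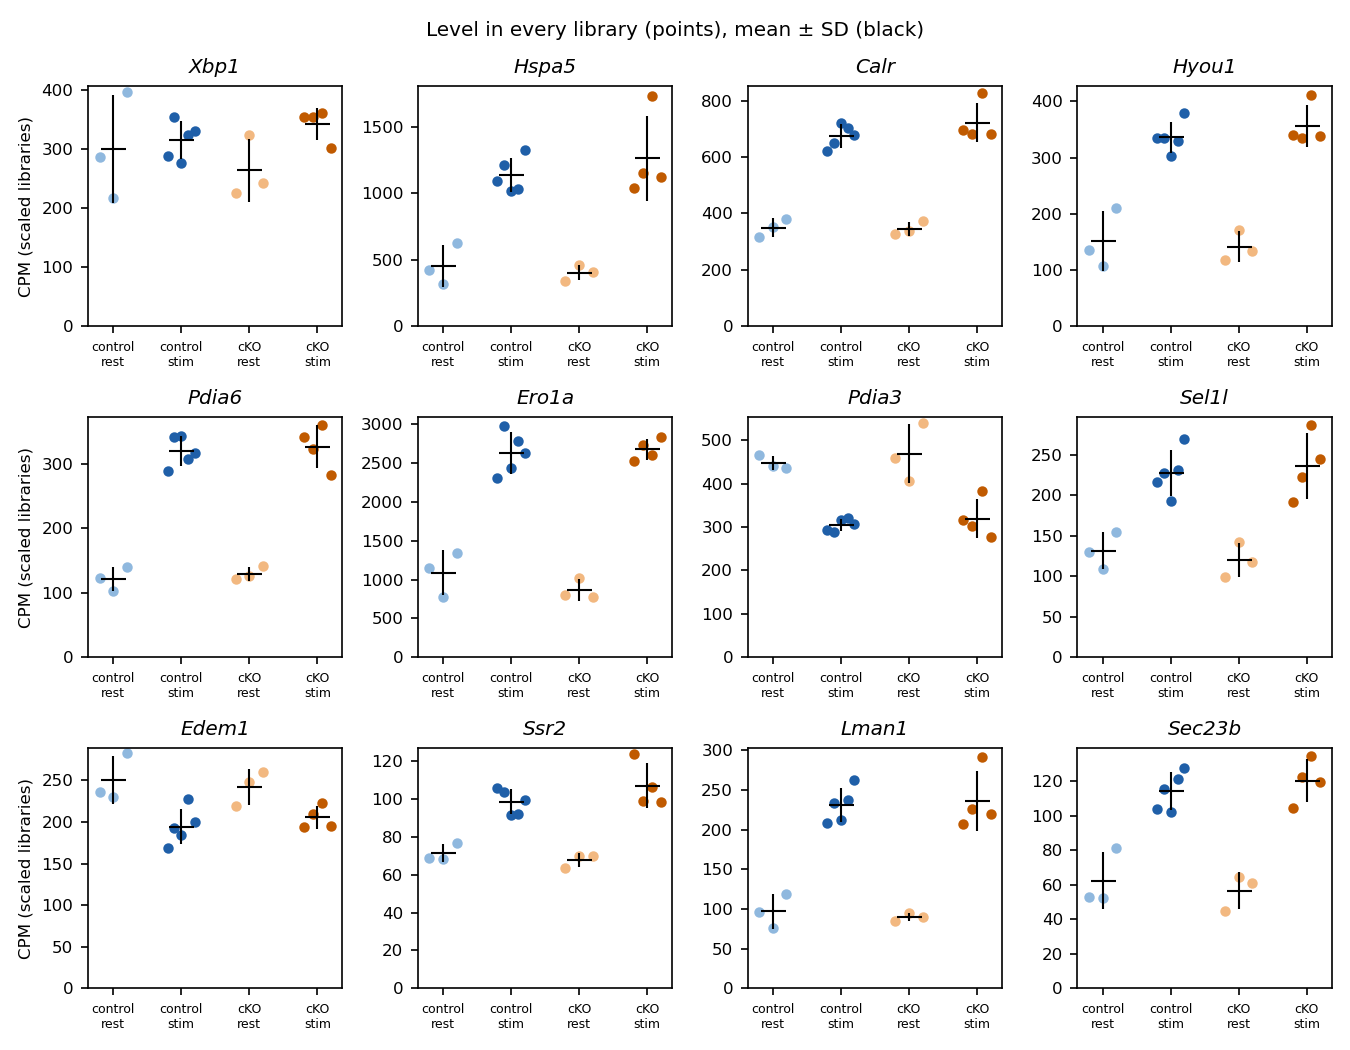
CPM in each library (y axis, from 0) of 12 named genes in the 4 groups (rest is non-stimulated, stim is stimulated), with a point for each library and black lines for the group mean and 1 SD. Stimulated libraries lie above non-stimulated ones for Calr, Hspa5, Pdia6, Ero1a and Lman1, and below them for Pdia3.

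Among the isomerases and oxidases 4 of 7 rose and 1 fell in control cells, and 5 rose and 1 fell in cKO cells, with medians of 0.24 and 0.38. Pdia6, an isomerase that works with BiP and also acts on IRE1, had 122.5, 102.7 and 140.4 CPM in non-stimulated and 289.2, 341.7, 344.2, 308.0 and 317.6 in stimulated control libraries, and 121.3, 125.9 and 141.1 against 341.6, 323.4, 360.2 and 283.3 in cKO libraries. Library values of Pdia6 were close within each group and far apart between the conditions. It had the smallest p of the 45 genes in both genotypes, at log2 1.39 ± 0.11 (edgeR adjusted p = 1.69e-08) in control and 1.34 ± 0.11 (adjusted p = 4.19e-08) in cKO cells.

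Ero1a, the oxidase that recharges the isomerases and is also induced by low oxygen, had 1149, 773.9 and 1338 CPM in non-stimulated and 2311, 2978, 2432, 2781 and 2624 in stimulated control libraries, and 798.5, 1026 and 769.9 against 2522, 2737, 2603 and 2830 in cKO libraries. It rose by 1.27 ± 0.15 on the log2 scale in control (edgeR adjusted p = 2.04e-06) and 1.63 ± 0.16 in cKO cells (adjusted p = 2.03e-07). Its paralogue Ero1b, expressed far lower at 13.2 to 21.41 CPM in the control libraries, was not called, at -0.12 ± 0.14 and -0.14 ± 0.15.

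Pdia3, the isomerase that works with calnexin and calreticulin and also sits in the MHC class I loading complex, went the other way. It had 466, 440.4 and 435.8 CPM in non-stimulated and 293.6, 288.5, 316.4, 319.7 and 305.9 in stimulated control libraries, and 459.7, 405.1 and 539.8 against 316.0, 301.7, 383.3 and 276.5 in cKO libraries. Every stimulated library was below every non-stimulated one in both genotypes. The fall was 1.47-fold in both, with log2 -0.55 ± 0.10 (edgeR adjusted p = 0.000226) in control and -0.55 ± 0.11 (adjusted p = 0.000353) in cKO cells.

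Pdia4 and P4hb, the last being the gene of the founding protein disulfide isomerase, rose less, at 0.32 and 0.24 in control and 0.38 and 0.44 in cKO cells. Ppib, the proline isomerase cyclophilin B, was called in cKO cells only, at 0.29 ± 0.11 (edgeR adjusted p = 0.0363), against -0.01 ± 0.11 in control cells. That call was lost without the first or the third non-stimulated and the first or the third stimulated cKO library (edgeR adjusted p = 0.069 to 0.139), with a log2 change of 0.19 without the last of these. In control cells P4hb lost its call without any 1 of the 3 non-stimulated libraries and without the second stimulated one (0.0535 to 0.173) and Pdia4 without the second non-stimulated one (0.0516).

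Of the 6 genes of ER-associated degradation 2 rose (33.3%, not far from the share of all genes) and 1 fell in control cells. In cKO cells 3 rose, and the medians were 0.17 and 0.29. Sel1l, the scaffold of the HRD1 ubiquitin ligase, had 130.0, 109.2 and 154.8 CPM in non-stimulated and 216.4, 228.1, 192.4, 231.5 and 269.3 in stimulated control libraries, and 99.78, 142.1 and 118.2 against 191.2, 222.2, 287.3 and 244.9 in cKO libraries. The conditions did not overlap. Sel1l rose by 0.79 ± 0.15 (edgeR adjusted p = 0.000273) and 0.98 ± 0.16 (adjusted p = 5.17e-05) on the log2 scale. Syvn1, the gene of HRD1 itself, had 0.05 ± 0.10 and 0.13 ± 0.10 and was not called.

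Edem1, a mannosidase-like factor that hands misfolded glycoproteins to degradation, had 236.3, 230.4 and 283.2 CPM in non-stimulated and 169.0, 192.6, 184.1, 227.1 and 199.7 in stimulated control libraries, and 218.7, 247.6 and 260.1 against 193.7, 209.9, 222.6 and 195.3 in cKO libraries. In control cells the highest stimulated library was just under the lowest non-stimulated one, and in cKO cells the ranges overlapped by 1 library. It fell by 0.36 ± 0.10 on the log2 scale in control cells (edgeR adjusted p = 0.00566), and in cKO cells -0.24 ± 0.11 was not called (adjusted p = 0.0647). Herpud1 rose in both genotypes (0.37 and 0.55), Derl1, a channel protein of the same route, was called in cKO cells only (0.21 and 0.39), and Derl2 was not called (0.13 and 0.19). Without the third non-stimulated control library Edem1 lost its call in control cells (-0.26, edgeR adjusted p = 0.0546) and Derl1 gained one (0.40, adjusted p = 0.00751), and without the first or the second Herpud1 lost its call (0.0517 and 0.088). Without the first non-stimulated cKO library Derl1 lost its call in cKO cells (0.0965) and Edem1 was called lower (0.0422).

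Of the 12 genes of the translocon, the signal sequence receptor (also called TRAP) and the signal peptidase 4 rose in control cells (33.3%, not far from the share of all genes), and 6 rose and 1 fell in cKO cells, with medians of 0.12 and 0.33. Ssr2 had 68.83, 68.12 and 76.92 CPM in non-stimulated and 105.7, 103.5, 91.46, 91.73 and 99.39 in stimulated control libraries, and 63.59, 69.99 and 69.96 against 123.8, 98.82, 106.1 and 98.5 in cKO libraries. Its conditions were separate in both genotypes, at log2 0.46 ± 0.09 (edgeR adjusted p = 0.000371) and 0.65 ± 0.10 (adjusted p = 1.79e-05).

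Ssr1, the partner of Ssr2 in the same receptor, had 264.9, 243.1 and 294.5 CPM in non-stimulated and 321.1, 354.7, 332.1, 327.7 and 343.2 in stimulated control libraries, and 274.1, 267.2 and 277.0 against 337.2, 340.9, 382.6 and 336.9 in cKO libraries. The rise was smaller but also without overlap, at 0.33 ± 0.08 (edgeR adjusted p = 0.00228) and 0.36 ± 0.08 (adjusted p = 0.00151). The other subunits, Ssr3 and Ssr4, had 0.11 and 0.13 in control cells, neither called, and 0.30 and 0.54 in cKO cells, of which Ssr4 was called. Ssr3 was called there without the first or the fourth stimulated cKO library (edgeR adjusted p = 0.0346 and 0.0282).

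The Sec61 channel itself moved unevenly. Sec61a1, the pore, rose by 0.51 ± 0.16 and 0.77 ± 0.17 and the small subunit Sec61g by 0.43 ± 0.15 and 0.57 ± 0.16 on the log2 scale in control and cKO cells, while Sec61b had -0.16 ± 0.16 and -0.07 ± 0.16 and was not called. The call of Sec61a1 and of Sec61g in control cells was lost when either the first or the second non-stimulated control library was left out (edgeR adjusted p = 0.074 to 0.103), and without the third one Sec61a1 rose by 0.78. Tram1, a neighbour of the channel, was not called at -0.05 and 0.09.

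Of the signal peptidase genes only the catalytic subunit Sec11c was called lower. It had 102.0, 94.79 and 102.0 CPM in non-stimulated and 80.37, 87.75, 87.71, 95.41 and 92.22 in stimulated control libraries, and 108.2, 101.8 and 112.5 against 83.71, 96.11, 97.91 and 86.46 in cKO libraries. The control groups overlapped by 1 library and the cKO groups did not. The log2 fold change was -0.17 ± 0.08 (edgeR adjusted p = 0.0903) in control and -0.24 ± 0.08 (adjusted p = 0.022) in cKO cells. Spcs2 was called higher in cKO cells only (0.21 and 0.36), and Spcs1 and Spcs3 were not called. In cKO cells the call of Sec11c was lost without the first or the third non-stimulated and the first or the fourth stimulated library (edgeR adjusted p = 0.0603 to 0.0926). That of Spcs2 was lost without any 1 of the 3 non-stimulated libraries (0.0523 to 0.151) and without the third stimulated one (log2 0.22, adjusted p = 0.158). Without the fourth stimulated cKO library Spcs1 and Spcs3 were called higher (0.0213 and 0.0444), and Spcs3 also without the first (0.0489).

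Export genes rose where they were called. In control cells 2 of 5 did (40%, against 25.4% of all genes), and in cKO cells 4 of 5 (80%, against 26.7%). Their medians were 0.43 and 0.64. Lman1, the cargo receptor ERGIC-53 that ferries glycoproteins into COPII vesicles, had 96.07, 75.93 and 119.4 CPM in non-stimulated and 208.5, 234.2, 212.3, 237.9 and 262.9 in stimulated control libraries, and 84.71, 95.49 and 89.88 against 207.4, 226.3, 292.1 and 220.0 in cKO libraries. The conditions were far apart, at log2 1.25 ± 0.14 (edgeR adjusted p = 7.74e-07) and 1.39 ± 0.14 (adjusted p = 3.5e-07).

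Sec23b, part of the inner COPII coat, had 53.04, 52.51 and 81.42 CPM in non-stimulated and 103.9, 115.4, 102.1, 121.3 and 127.8 in stimulated control libraries, and 44.6, 64.29 and 60.98 against 104.5, 122.4, 134.7 and 119.5 in cKO libraries. It rose by 0.87 ± 0.15 (edgeR adjusted p = 0.000123) and 1.09 ± 0.16 (adjusted p = 1.97e-05) on the log2 scale. Sec24d, the cargo-binding partner of Sec23, had 0.43 ± 0.23 and 0.64 ± 0.25, called in cKO cells only. Sar1a, the small GTPase that starts coat assembly, had 0.15 and 0.30, and the outer coat gene Sec31a 0.07 in both, of which Sar1a was called in cKO cells only. In cKO cells the call of Sec24d was lost without the first or the third non-stimulated and the first, the second or the third stimulated library (edgeR adjusted p = 0.0514 to 0.162) and that of Sar1a without the first non-stimulated one (0.0657). Without the third non-stimulated control library both were called in control cells, Sec24d at 0.85 (adjusted p = 0.00141) and Sar1a at 0.26 (0.0313).

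Among the genes with a RefSeq promoter, 5 of the 9 with an ERSE rose in control cells and 6 in cKO cells, and none was called lower, with median log2 changes of 0.53 and 0.61. The 26 without one had 9 higher and 2 lower in control cells and 14 higher and 1 lower in cKO cells, with medians of 0.16 and 0.33. Herpud1 and Dnajb11, which hold an ERSE-II, were among the 26. Of the 24 genes with neither element 7 rose in control and 13 in cKO cells, and of the 11 with either, 7 rose in each. Among all genes 25.4% and 26.7% were called higher. The part of the element in the response was not tested. Within the 9 the control values ran from -0.12 in Ero1b to 1.39 in Pdia6, and Canx and Syvn1 had the element and were not called. Lman1, Hyou1 and Manf were not among the matched promoters.

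Per length, the order of the genes shifted with stimulation. In non-stimulated control cells Ero1a led with 334.4 ± 65.7 TPM, followed by Ppib at 245.9, Hsp90b1 at 218.7, Hspa5 at 202.3 ± 61.1, Calr at 196.3 and Canx at 194.5, and these last 4 did not differ beyond the spread of the 3 libraries. In stimulated control cells Ero1a stood at 968.4 ± 189.0 TPM, Hspa5 at 562.2 ± 88.6, Calr at 437.8 ± 41.4 and Hsp90b1 at 357.7 ± 49.8 (SD, n = 5). Manf at 271.2 ± 47.5 and Ppib at 268.0 ± 24.0 were next and overlapped each other. The lowest genes were Ero1b at 4.21, Dnajb9 at 10.99, Ern1 at 13.79 and Syvn1 at 14.44 TPM. The 4 leading genes were in the same order in stimulated cKO cells, at 956.7 ± 226.3, 581.3 ± 82.9, 433.9 ± 42.2 and 355.8 ± 43.5 TPM (n = 4). Mean Ero1a RNA stood above that of BiP on the length-adjusted scale in every group.

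**Figure D4:**
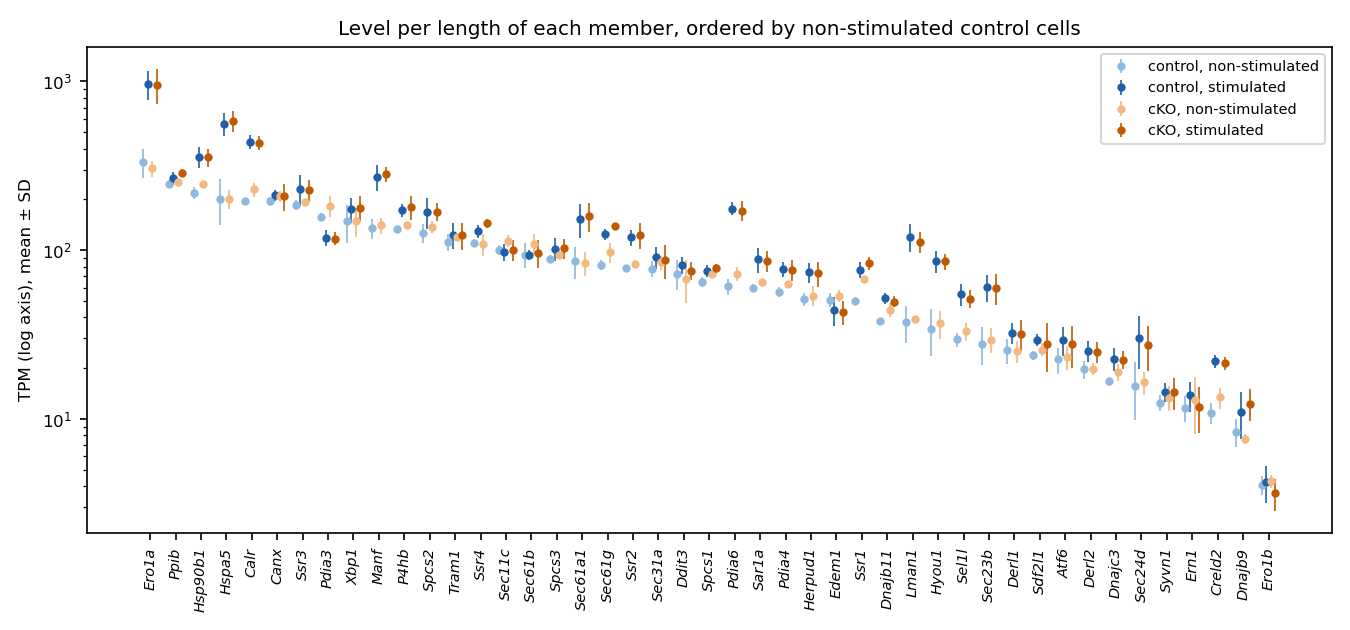
Mean TPM (y axis, log scale) of the 45 genes (x axis) in the 4 groups, ordered by the level in non-stimulated control cells, with bars for 1 SD over libraries. Ero1a leads and Ero1b is lowest in every group, and stimulated points stand clear above non-stimulated ones at Ero1a, Hspa5, Calr, Pdia6 and Lman1.

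TPM values are shares within a library, and 1 RNA, Rn7s2, a copy of the 7SL RNA of the signal recognition particle, took 7.97 to 16.5% of all TPM. The share was 7.97 to 10.7% in 4 stimulated libraries (control 4 and 5, cKO 2 and 4), where the 45 genes summed to 6953 to 7049 TPM. In the other 5 stimulated libraries it was 13.2 to 15.4%, and they summed to 5397 to 6448 TPM. Near-identical copies of 7SL can share reads, so the split between copies is uncertain. The part of Rn7s2 in the TPM differences was not tested.

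The wider pathway was read from 7 lists of other genes, 109 of whose 114 members were tested. In control cells 53 rose and 11 fell (48.6% and 10.1%), with a median of 0.26. In cKO cells 70 rose and 10 fell (64.2% and 9.17%), with a median of 0.35. Of all genes tested, 25.4% were called higher and 25.2% lower in control cells, and 26.7% and 27.1% in cKO cells. These shares of all genes apply to every list below. The RNA of PERK, the kinase that slows translation under ER stress, went against that of the chaperones. Eif2ak3 fell from 48.16 ± 12.36 to 28.42 ± 2.95 CPM in control cells (SD, n = 3 and 5). Its log2 change was -0.76 ± 0.16 (edgeR adjusted p = 0.00057) there, and it fell by 0.83 ± 0.16 in cKO cells (adjusted p = 0.000394). Atf4, from the same list, rose by 0.48 ± 0.13 (edgeR adjusted p = 0.00598) in control and 0.65 ± 0.14 (adjusted p = 0.000768) in cKO cells. Ppp1r15a, the phosphatase subunit GADD34 that undoes the action of PERK, rose from 38.54 ± 12.93 to 109.7 ± 12.8 CPM in control cells, by 1.51 ± 0.22, and by 1.90 ± 0.23 in cKO cells. Atf6b, the relative of Atf6, rose by 0.86 ± 0.13 and 0.71 ± 0.14. Of 13 regulators of the unfolded protein response 6 rose (46.2%) and 3 fell (23.1%) in each genotype, where the share that fell was near that of all genes.

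Of 20 other ER folding factors 10 rose and 3 fell in control cells, and 14 rose and 3 fell in cKO cells. Pdia5, an isomerase, had the largest rise of those named by rule, from 1.83 ± 0.30 to 10.4 ± 0.54 CPM in control cells (log2 2.51 ± 0.20, edgeR adjusted p = 1.69e-08) and by 2.59 ± 0.21 in cKO cells. Qsox1, an oxidase that acts late in the secretory path, fell from 29.7 ± 3.5 to 14.07 ± 1.83 CPM, by 1.08 ± 0.12, and by 0.96 ± 0.12 in cKO cells. The folding machinery thus held genes called in both directions.

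Of 15 other degradation genes 4 rose and 1 fell in control cells, where 26.7% higher is close to the 25.4% of all genes, and 10 rose (66.7%) and 1 fell in cKO cells. Os9, a lectin that presents misfolded glycoproteins to Sel1l, was the one that fell, by 0.77 ± 0.11 and 0.60 ± 0.11, and Faf2 rose by 0.46 ± 0.08 and 0.56 ± 0.08. Of 19 genes of the signal recognition particle, its targeting partners and the ER membrane complex 10 rose and 1 fell in control cells, and 12 rose and 1 fell in cKO cells. Emc4, an insertase subunit, rose by 0.87 ± 0.11 and 1.19 ± 0.12, and Srp54a by 0.75 ± 0.11 and 0.78 ± 0.12.

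Of 12 oligosaccharyltransferase genes, which add sugar chains to entering proteins, 6 rose and 1 fell in each genotype. Rpn1 rose from 132.6 ± 28.7 to 293.0 ± 8.9 CPM in control cells, by 1.14 ± 0.13, and Tusc3 by 0.81 ± 0.09. Of 17 other COPII and cargo genes 12 rose and 1 fell in control cells and 11 rose and 1 fell in cKO cells, with Sec13 at 0.76 ± 0.11 and Sec23a at 0.66 ± 0.09 in control cells. Of 13 genes of the return route by COPI vesicles 5 rose and 1 fell in control cells (38.5% higher) and 11 rose in cKO cells (84.6%), with Kdelr2, a receptor that returns escaped chaperones, at 0.53 ± 0.10 and the coat gene Copg1 at 0.52 ± 0.08.

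The calls in the 2 genotypes were compared gene by gene, and the responses share no library. Of the 45 genes 18 were called higher in both genotypes, 1 in control only (Dnajb11) and 8 in cKO only (Dnajb9, Dnajc3, Ppib, Derl1, Ssr4, Spcs2, Sec24d and Sar1a). Pdia3 was called lower in both, Edem1 in control only and Sec11c in cKO only, and 15 were called in neither. Genes are no replicates of each other, and as a description over the 45 of them the 2 responses had Pearson's r of 0.965 and Spearman's rho of 0.935, and 42 had the same sign. A call in 1 genotype alone does not show a difference, and the difference itself was tested as the interaction.

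No gene of the 45 was called in the interaction (edgeR adjusted p of 0.997 for the smallest), where 0% of all genes were called, and 1 of 45 had an unadjusted p under 0.05, against 605 of 15619. DESeq2 also called 0 of the 45. The smallest p was that of Ssr4, with 71.99, 68.12 and 78.78 CPM in non-stimulated and 73.88, 82.39, 85.51, 81.25 and 77.43 in stimulated control libraries, and 61.7, 76.22 and 58.03 against 104.7, 80.98, 115.5 and 77.8 in cKO libraries. Its stimulated cKO libraries split into a pair above all control libraries and a pair within their range. The response was larger by 0.40 ± 0.18 in cKO cells on the log2 scale, with an edgeR adjusted p of 0.997.

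Dnajb9, whose product ERdj4 keeps IRE1 inactive, had 18.95, 17.78 and 26.35 CPM in non-stimulated and 19.73, 24.6, 18.8, 26.43 and 33.05 in stimulated control libraries, and 15.78, 17.89 and 17.6 against 21.29, 28.37, 39.78 and 28.82 in cKO libraries. The control ranges overlapped and the cKO ranges did not. The interaction was 0.57 ± 0.29 on the log2 scale (edgeR adjusted p = 0.997). Ppib had 175.1, 187.7 and 192.9 CPM in non-stimulated and 169.1, 193.5, 197.2, 184.0 and 176.8 in stimulated control libraries, and 158.0, 181.7 and 173.5 against 222.6, 183.0, 255.1 and 176.4 in cKO libraries. Its control groups overlapped, as did its cKO groups, and the interaction was 0.30 ± 0.15 (log2, edgeR adjusted p = 0.997).

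Between genotypes, 0 of the 45 genes were called without stimulation, where edgeR called 0% of all genes (402 had an unadjusted p under 0.05, and none of the 45 did). The smallest p was that of Ero1a, 0.33 ± 0.16 lower in cKO cells on the log2 scale (edgeR adjusted p = 1), with overlapping libraries as given above. With stimulation 0 of the 45 were called, against 0.0064% of all genes, which is Asb2 itself, and the smallest p was that of Ssr4, 0.24 ± 0.11 higher in cKO cells on the log2 scale (edgeR adjusted p = 1). On CPM no gene of the 45 had separate libraries: 0 did not overlap between genotypes without stimulation, against 7.86% of all genes, and 0 with stimulation, against 0.659%. On TPM 5 of the 45 were separate without stimulation, all higher in cKO cells (Hsp90b1, Calr, Dnajb11, Pdia4 and Ssr1), against 17.2% of all genes, and 1 with stimulation (Sec61g, higher in cKO cells), against 0.371%. Ssr1, for example, had 47.96 to 53.08 TPM in control and 64.61 to 69.73 TPM in cKO libraries. DESeq2 called 0 of the 45 in both comparisons. The log2 differences of the 45 ran from -0.33 to 0.14 without and from -0.07 to 0.27 with stimulation.

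Though none was called, the signs of the differences leaned to 1 side, and the lean grew, shrank or turned with the library left out. Without stimulation 35 of the 45 genes were lower in cKO cells (median -0.07), with stimulation 39 were higher (median 0.08), and the interaction was positive for 39 (86.7%, against 52.9% of all genes, median 0.14). These 3 comparisons share libraries. Leaving out the third non-stimulated control library turned the first pattern to 34 of 45 higher (median 0.06) and left 24 of 45 interactions positive (median 0.02). Leaving out the third stimulated cKO library left 25 of 45 higher with stimulation (median 0.00). Other libraries moved the lean the other way. Without the second non-stimulated control library 5 of 45 genes were higher in cKO cells without stimulation (median -0.12). The interaction was then positive for 44 of 45 (median 0.20). It was positive for 43 without the third non-stimulated cKO library and for 42 without the fourth stimulated cKO library. Without both the third non-stimulated control and the third stimulated cKO library, 13 of 45 interactions were positive (median -0.06). These 2 libraries were chosen because most of the 45 genes were high in them, so a lower interaction was set by that choice. The log2(TPM + 0.1) scale moved all genes, to medians of 0.15 and -0.07 between genotypes without and with stimulation and -0.21 in the interaction. On it 39, 18 and 9 of the 45 were positive, with medians of 0.10, -0.02 and -0.12. Relative to the median of all genes, 14, 36 and 34 of the 45 were higher on that scale, against 10, 39 and 37 on counts. The side was thus the same on both scales only relative to that median, while the signs themselves turned. The lean was weaker on log2(TPM + 1), at 18, 35 and 28, and on log2(TPM + 0.1) with no filter, at 20, 34 and 28.

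Some of these libraries also stood out in the levels of the 45 genes. In the third non-stimulated control library 44 of 45 genes were above the mean of their group, with a median deviation of 0.19 on the log2 scale, and in the second only 3 were (-0.15). In the third stimulated cKO library 40 of 45 were above (0.20). The first non-stimulated cKO library had 4 above (-0.12), and leaving it out gave 24 of 45 genes higher in cKO cells without stimulation. Over all genes the median deviation of a library ran from -0.01 to 0.01. On the TPM scale the third stimulated cKO library had a median deviation of -0.15. That library also had 9.43% of its counts in mitochondrial genes, against 4.36 to 6.24% in the others, and the lowest scaling factor, 0.89. The part of these in the deviations was not tested. Without both the third non-stimulated control and the third stimulated cKO library, stimulation was called higher for 25 and lower for 1 of the 45 genes in control cells, and for 24 and 3 in cKO cells.

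**Figure D5:**
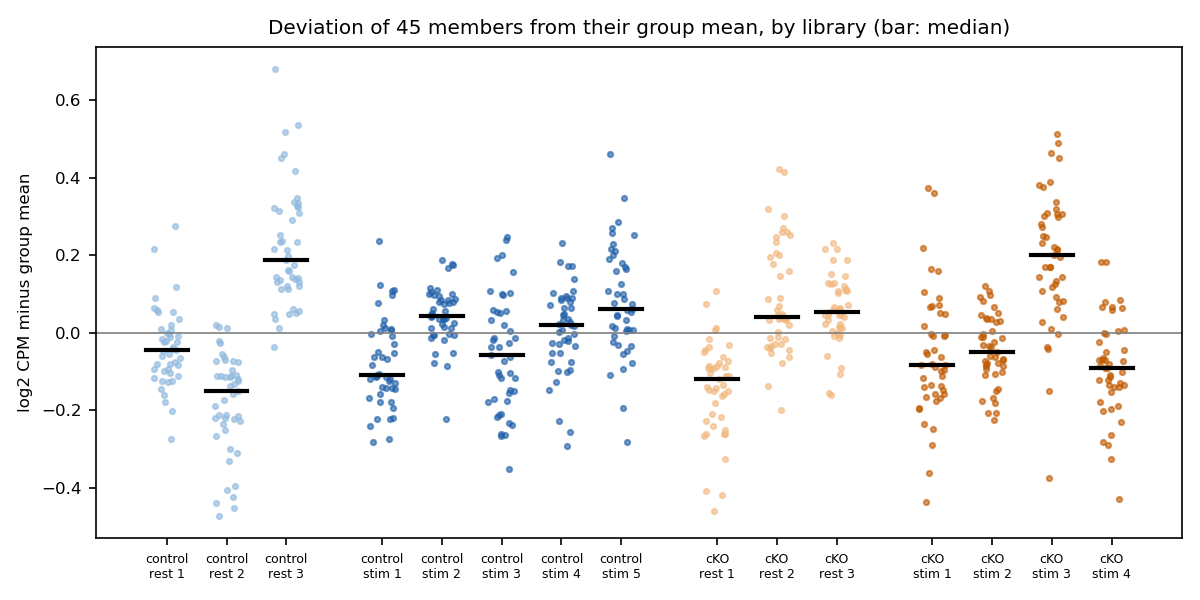
Deviation of each of the 45 genes from the mean of its group on the log2 CPM scale (y axis), by library (x axis, rest is non-stimulated and stim is stimulated), with a black bar for the median of the library. The third non-stimulated control library (0.19) and the third stimulated cKO library (0.20) have the highest medians, and the second non-stimulated control library has the lowest (-0.15).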

How the data were processed

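RNA was sequenced from 15 libraries, made per the labels' protocols with a stranded total RNA kit and depletion of ribosomal RNA. The submitters' processing notes name GRCm39, Salmon 1.10.1, STAR 2.7.9a and cutadapt 3.4, without their roles. The authors deposited estimated counts (9.42% of values not whole) and TPM, scaled within each library. Per-sample columns of no sample numbered 0.

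Estimated counts were rounded. In R 4.3.3, edgeR 4.0.16 kept 15619 genes (filterByExpr), scaled libraries by the trimmed mean of M-values and fitted 1 mean per group over 15 libraries (robust quasi-likelihood, biological coefficient of variation 15.4%). The 5 comparisons used two-sided tests, and p-values were adjusted by Benjamini-Hochberg over all genes. The SE of a log2 fold change was derived as its absolute value over the square root of the quasi-likelihood F statistic. The script was checked on simulated data. Alternatives were DESeq2 1.42.0, other size factors and filters, a replicate block, limma 3.58.1 on log2(TPM + 0.1) or (TPM + 1), and leaving out each library. TPM are shares, so 1 abundant RNA lowers the rest. RefSeq promoters (GRCm38.p6) gave sequences.

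The genes, lists and tests were chosen with earlier results of these data known. Library values were given for the 2 genes of each role with the smallest p for stimulation in control cells, genes called lower, and those with the smallest genotype p. The 2 genes with the smallest p were named from each pathway list, and Eif2ak3 always. Atf4 was added after values were seen. The library values of Hspa5, the 3 promoters printed in full and the leaving out of 2 libraries together were chosen after values were seen. Srpra, and Mzb1, Clgn, Derl3 and Sec31b for low counts, were not analysed here.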

Additional observations from a re-analysis of the deposited data

Results flagged for a closer look

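In groups of 4 or 5 libraries, the highest or lowest library on CPM was set against its nearest neighbour by Dixon's test. Of 90 groups (45 genes in the stimulated control and stimulated cKO cells) 14 had a library that far from the others. Chance gives about 1 in 20 for a single group. The genes share their libraries and are not independent, so the count of 14 cannot be set against that rate.

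In 11 of them it was the third stimulated cKO library, always the highest on CPM. On TPM its Hspa5 was 615.8, under the 644.7 of the second stimulated cKO library. Of these 11 genes, the third library was the highest on TPM for Ssr1 alone (93.03). It was the lowest on TPM for Hyou1 (77.46) and Spcs3 (90.72). For the chaperone genes it had 1735 CPM of Hspa5 (next 1152), 1238 of Hsp90b1 (next 897.9), 826.2 of Calr (next 696.6), 411.4 of Hyou1 (next 339.6), 252.2 of Manf (next 162.3) and 161.6 of Dnajc3 (next 112.7). For the translocon and signal peptidase it had 430.9 CPM of Sec61a1 (next 361.4), 382.6 of Ssr1 (next 340.9), 416.7 of Spcs3 (next 340.5) and 281.7 of Spcs2 (next 202.5). Ddit3, the gene of CHOP, stood at 64.48 CPM there (next 49.29). The stimulation calls of Hspa5, Hsp90b1, Calr, Hyou1, Manf and Sec61a1 in cKO cells held without this library.

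The other 3 were in different libraries. Manf was at 191.3 CPM in the fifth stimulated control library (next 156.6), Ern1 was lowest at 55.47 CPM in the first stimulated cKO library (next 68.22), and Xbp1 was lowest at 300.8 CPM in the fourth stimulated cKO library (next 352.8).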

How the results depend on the processing

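No called stimulation response of the 45 genes changed sign under any alternative run. Of the 21 genes called in control cells 14 kept their call under all alternatives, and of the 28 in cKO cells 16 did. In control cells Dnajb11, Pdia4, P4hb, Herpud1, Edem1, Sec61a1 and Sec61g lost it in at least 1. In cKO cells Dnajb9, Dnajc3, Pdia4, P4hb, Ppib, Herpud1, Derl1, Ssr1, Spcs2, Sec11c, Sec24d and Sar1a did. Some other genes gained a call. Among the sensors and factors, Xbp1 and Atf6 were each called higher in cKO cells in 4 of 17 alternatives and Ddit3 in 1. Atf6 was also called higher in control cells in 1 of 18. The count called lower in cKO cells fell from 2 to 1 with no filter on low counts, with only the groups compared and in the 3 limma fits on TPM. In control cells it fell from 2 to 1 in the same 3 limma fits and without the 2 libraries numbered 3 (non-stimulated control and stimulated cKO), and it was 3 in cKO cells without both. The count higher in cKO cells fell from 26 to 15 on log2(TPM + 0.1) with no filter. Leaving out 1 library at a time gave 13 to 20 genes higher and 1 to 2 lower in control cells, and 20 to 31 higher and 1 to 2 lower in cKO cells. The low of 13 came without the second non-stimulated control library and that of 20 without the first non-stimulated cKO library. In all runs 0 of the 45 were called between genotypes or in the interaction. On log2(TPM + 0.1) the median of all genes moved to 0.14 in control and -0.09 in cKO cells, and the split of all genes called higher and lower was 3754 to 2108 and 2583 to 3443, against 3961 to 3936 and 4171 to 4227 on counts. There the 45 had 22 higher in control and 18 in cKO cells.

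The numbers were not taken to pair libraries, since the labels do not say that they do. No 2 groups had a correlation over 0.1 for each of the 3 numbers, but such a cut cannot exclude pairing. The deviations of same-numbered libraries had correlations of -0.257 to 0.155 between the control groups, 0.096 to 0.151 between the cKO groups and -0.333 to 0.283 over all groups. With a replicate block, 18 of the 45 genes were higher and 2 lower in control cells and 28 higher and 3 lower in cKO cells. Libraries correlated best with their own number for 0 of 3 numbers in control and 3 of 3 in cKO cells, which is a hint from the data and not from the design. The median within-group SD of the 45 genes was 0.14 to 0.19 on the log2 scale, and the lowest count of any of them in a library was 219 (Creld2).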
